A study of Mus musculus with 7 samples.

Results

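The genes described here are 10 cytosolic aminoacyl-tRNA synthetases, Gars, Sars, Iars, Nars, Lars, Aars, Eprs, Yars, Mars and Tars. They were taken by gene name from a table of 49584 features, of which 21960 are nuclear protein-coding genes. The 10 genes had been selected on the knockout-to-control difference in these same counts, so their levels in the 2 groups are given as a description, without a test. The other 10 cytosolic synthetase genes (Cars, Dars, Farsa, Farsb, Hars, Kars, Qars, Rars, Vars and Wars) are set beside them.

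An aminoacyl-tRNA synthetase joins an amino acid to its tRNA, with a separate enzyme for most amino acids. Cytosolic enzymes serve translation on cytosolic ribosomes, while most mitochondrial enzymes are encoded by separate nuclear genes and are imported. Several cytosolic enzymes sit together in the multisynthetase complex, held by the scaffold proteins of Aimp1, Aimp2 and Eef1e1, and the rest act outside it. Many cytosolic synthetase genes are known targets of the transcription factor ATF4, which acts in the response to amino acid shortage and to mitochondrial stress.

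Small RNA libraries from crude heart mitochondria were compared between 4 Tefm knockout mice (genotype Tefm -/-, labelled L/L, cre) and 3 control mice (genotype Tefm +/+, labelled L/L). Tefm encodes the mitochondrial transcription elongation factor. Both groups are labelled as carrying the loxP-flanked allele, and the knockouts also carried cre driven by the muscle creatine kinase promoter, so cells other than heart and skeletal muscle keep the gene. Age was not given in the labels, and the design text counts 4 control mice, of which 3 were analysed here.

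Knockout libraries 1 to 4 held 1282873, 1302619, 973835 and 1034099 counts, and control libraries 1 to 3 held 1560798, 2570739 and 2015482. Of these, nuclear protein-coding genes took 29203, 44615, 72044 and 188642 counts in knockouts, against 51111, 160267 and 79048 in controls. All levels below are counts per 100000 nuclear protein-coding counts, so 1 count is worth between 0.530 (knockout 4) and 3.42 (knockout 1). The libraries hold fragments of mRNA that came with crude mitochondria, and intervals on counts cover counting error only. Tefm had 0, 1, 0 and 2 counts in knockouts and 0, 2 and 1 in controls, too few to check the labels. The summed level of 6 cardiomyocyte markers was 3109 to 4212 in knockouts and 7107 to 8372 in controls, where edgeR called 0 of the 6 (3 at an unadjusted p under 0.05) and DESeq2 called 4, all lower in knockouts. The summed level of 6 fibroblast markers was 462 to 1076 in knockouts and 460 to 776 in controls, and all 6 were tested. Postn, which encodes periostin, had a log2 difference of 2.85 ± 0.50 (SE; adjusted p = 0.0161 with edgeR). Postn reached the floor of the low-count filter in no control library, so its passing depended on the knockouts. The others were not called, with log2 differences of 0.64 to 0.81 for the collagens Col1a1, Col1a2 and Col3a1, -0.09 for Pdgfra and -0.61 for Dcn. Dcn was lower in every knockout than in any control. The 6 white blood cell markers summed to 30.5 to 65.0 in knockouts and 66.5 to 97.4 in controls, and 3 of them were tested. Cd74, of antigen presentation, had a log2 difference of -2.0 ± 0.37 (SE; adjusted p = 0.0191 with edgeR), and Lyz2 and Csf1r were not called. Ptprc, the general white blood cell marker, was too low to test and lay the other way, with 18 counts in knockouts and 4 in controls (ratio 3.91, 95% counting interval 1.29 to 15.9). The 6 endothelial markers summed to 98.6 to 213 in knockouts and 198 to 296 in controls. Of the 5 tested, edgeR called 0 (2 at an unadjusted p under 0.05) and DESeq2 called 2, both lower in knockouts. Of the 6 markers, 4 had a counting interval of the ratio below 1. Vwf lay the other way, with a ratio of 1.302 (95% counting interval 1.058 to 1.607). Libraries of Vwf overlapped between groups, and edgeR did not call it. The 5 erythroid markers summed to 11.1 to 41.1 in knockouts and 18.1 to 35.4 in controls, too low for the filter. The part of these differences in the results below was not tested. In bulk libraries, fewer cells of a type and less RNA per cell cannot be told apart.

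Summed over the 10 genes, the level was 243, 462, 357 and 270 in knockouts and 70.4, 52.4 and 60.7 in controls. The lowest knockout library was above the highest control library, and the means were 333 ± 98.6 (SD, n = 4) in knockouts and 61.2 ± 9.02 (SD, n = 3) in controls. This is a log2 difference of 2.41, or 5.31-fold. All 10 genes had a knockout-to-control ratio of summed counts above 1, from 2.89 (Yars) to 12.9 (Gars), and each 95% counting interval lay above 1. Among 5869 nuclear protein-coding genes with at least 15 counts, 61.9% had a ratio above 1, 18.0% had such an interval, and the median ratio was 1.19. The default low-count filter kept 7 of the 10 genes, leaving out Yars, Mars and Tars. Of those 7, only Eprs reached the filter's floor in any control library, so passing depended on the knockouts. Of the 7 genes kept, 6 were called higher in knockouts (all but Lars), where 8.3% of the 1602 genes tested were called higher and 1.56% lower. Of the 10 genes, 7 did not overlap between groups, Mars among them, where 19.9% of the genes tested lay higher in every knockout library than in any control library. Because the choice of genes used this contrast, nothing is read from these counts.

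**Figure D1:**
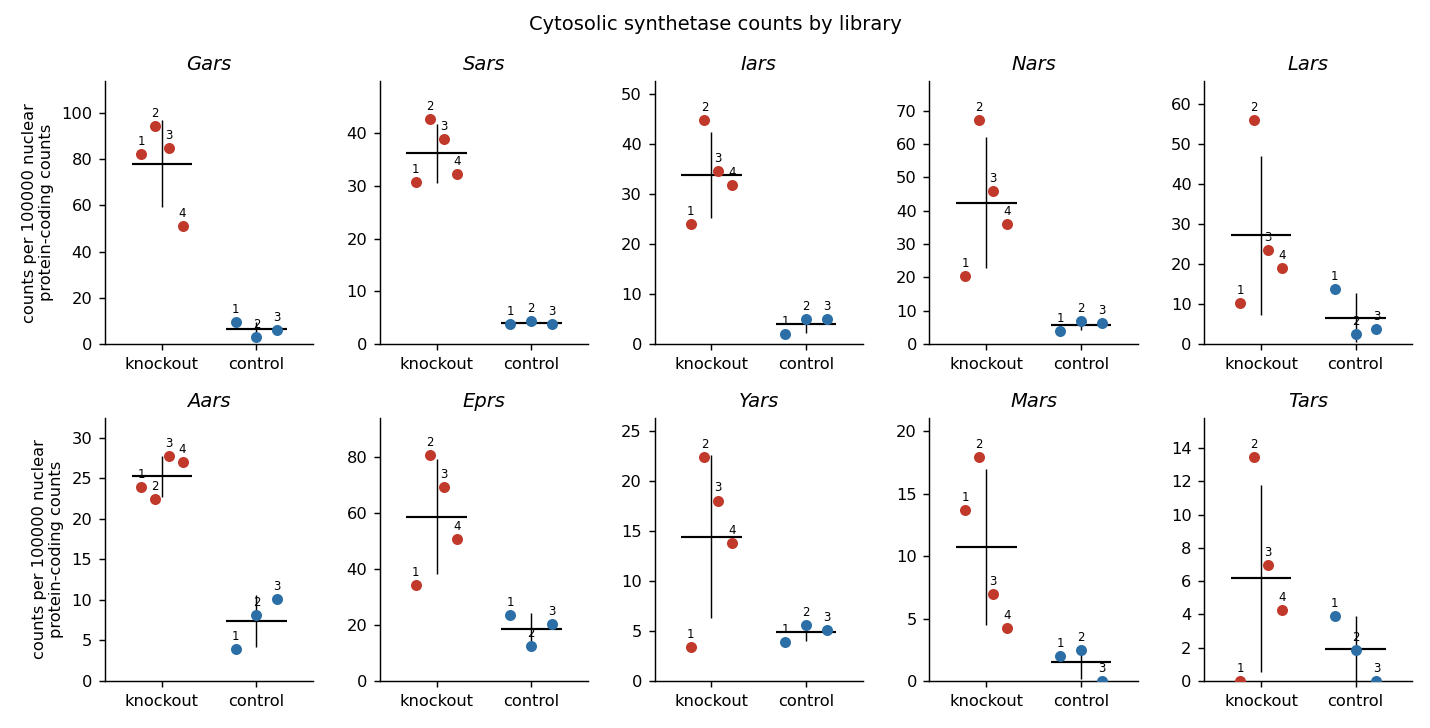
Level of each of the 10 synthetases in counts per 100000 nuclear protein-coding counts (vertical axis, a separate scale per gene) in 4 knockout (left, red) and 3 control (right, blue) libraries. Numbers give the replicate, horizontal lines the mean and vertical lines 1 SD, clipped at 0. In Gars the knockouts lie between 50.9 and 94.1 and the controls between 3.12 and 9.78, while Lars, Yars and Tars overlap between groups.

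The promoters of the genes are shown for a known element. ATF4 binds DNA as a dimer at elements that contain the letters TGATGNAA, where N is any base, and these letters were searched on both strands in 300 bases around each gene start (250 before and 50 after, RefSeq, GRCm38.p6). Windows were found for 8 of the 10 genes, with Mars listed under the symbol Mars1, and Lars and Nars are named only. The letters were in 5 of the 8 windows (Gars, Iars, Aars, Yars and Tars), and not in those of Sars, Eprs and Mars. They were in 1304 of all 32851 promoter windows (3.97%), and by gene in 1219 of the 27025 genes with a window (4.51%). The letters were in 0 of 5 windows of the other cytosolic synthetases, in 0 of 17 of the mitochondrial tRNA-charging genes and in 5 of 17 of a list of the ATF4 pathway. Those 5 windows were of Dars, Farsa, Farsb, Kars and Qars, whose counting intervals of the knockout-to-control ratio all included 1. No window was found for Cars, Hars, Rars, Vars and Wars, whose intervals lay above 1, so these genes were not searched. Among genes called higher in knockouts, leaving out the 10 synthetases, 3 of 109 windows held them (2.75%), against 32 of 1055 windows of the nuclear protein-coding genes tested (3.03%). A match is given for each of the 5 in 30 bases on the strand of its gene, with the match in capitals. In all but Yars the match lies on the opposite strand, so the capitals read as the reverse complement.
Gars, 30 to 23 bases before the start, chr6:55037960-55037989, plus strand: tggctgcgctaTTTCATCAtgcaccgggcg
Iars, bases 8 to 15 after the start, chr13:49682126-49682155, plus strand: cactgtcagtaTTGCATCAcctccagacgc
Aars, bases 10 to 17 after the start, chr8:111033840-111033869, plus strand: agcgggtcactTTTCATCAgagcgctctga
Yars, bases 4 to 11 after the start, chr4:129189895-129189924, plus strand: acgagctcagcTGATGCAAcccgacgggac
Tars, 15 to 8 bases before the start, chr15:11399655-11399684, minus strand: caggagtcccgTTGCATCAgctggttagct

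The gene with the highest ratio, Gars, is also shown with all 250 bases before its RefSeq start (chr6:55037751-55038000, plus strand, 62.4% G or C), the match in capitals. A match is a description of the letters and not a measurement of binding, and a window without one holds no statement about ATF4.
Gars, 250 bases before the start: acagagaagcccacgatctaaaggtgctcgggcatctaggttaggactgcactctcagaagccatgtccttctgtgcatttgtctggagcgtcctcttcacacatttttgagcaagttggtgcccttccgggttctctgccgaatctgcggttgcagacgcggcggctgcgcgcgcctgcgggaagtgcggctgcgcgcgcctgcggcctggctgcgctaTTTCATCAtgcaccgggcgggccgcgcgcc

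**Figure D2:**
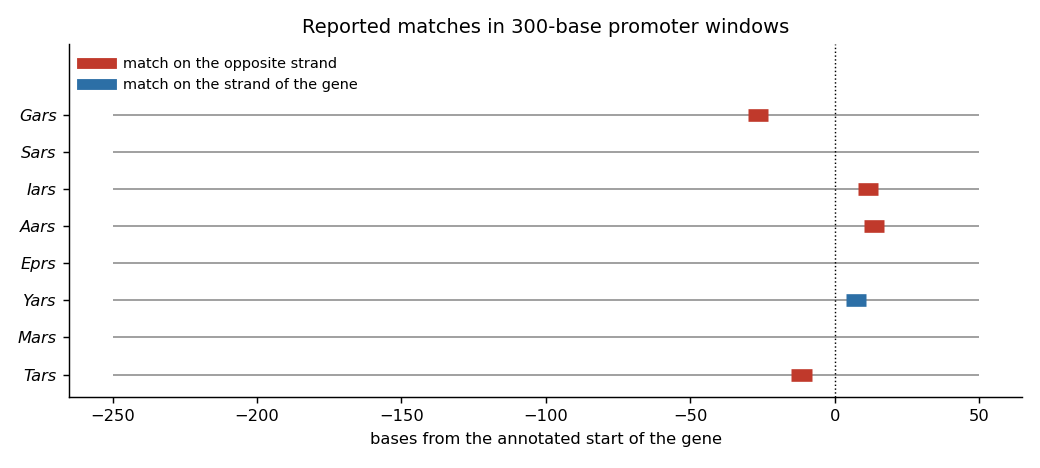
Position of the matches given in the text (bars) in the 300-base promoter windows of 8 synthetases, by distance in bases from the annotated gene start (dotted line), in red on the opposite strand and in blue on the strand of the gene. The match of Gars ends 23 bases before the start, those of Iars, Aars and Yars lie after it, and Sars, Eprs and Mars have none.

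Among the enzymes that act outside the complex, Gars had the highest ratio of the 10 genes. Gars (ENSMUSG00000029777.10, chr6:55038007-55079500, plus strand, GRCm38) encodes glycyl-tRNA synthetase, which serves both cytosol and mitochondria. Its level was 82.2, 94.1, 84.7 and 50.9 in knockouts, against 9.78, 3.12 and 6.33 in controls, from 24, 42, 61 and 96 counts in knockouts and 5 in each control. All knockouts lay far above all controls, with means of 78.0 ± 18.8 (SD, n = 4) in knockouts and 6.41 ± 3.33 (SD, n = 3) in controls and a log2 fold change of 3.69 ± 0.46 (SE).

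Sars (ENSMUSG00000068739.13, chr3:108424865-108445209, minus strand) encodes seryl-tRNA synthetase. Its level was 30.8, 42.6, 38.9 and 32.3 in knockouts, against 3.91, 4.37 and 3.80 in controls. The libraries of each group lay close together, and the log2 fold change was 3.10 ± 0.25 (SE), the smallest error among the 7 genes fitted. Nars (ENSMUSG00000024587.9, chromosome 18) encodes asparaginyl-tRNA synthetase, and its level was 20.6, 67.2, 45.8 and 36.1 in knockouts, against 3.91, 6.86 and 6.33 in controls. Knockouts spread widely but did not reach down to the controls, and the log2 fold change was 2.81 ± 0.44 (SE).

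Aars (ENSMUSG00000031960.14, chr8:111033144-111057664, plus strand) encodes alanyl-tRNA synthetase. Its level was 24.0, 22.4, 27.8 and 27.0 in knockouts, against 3.91, 8.11 and 10.1 in controls. The knockouts were even and lay above all controls, with a smaller log2 fold change of 1.71 ± 0.28 (SE). Yars (ENSMUSG00000028811.11, chr4:129189760-129219607, plus strand), for tyrosyl-tRNA synthetase, had a level of 3.42, 22.4, 18.0 and 13.8 in knockouts, against 3.91, 5.62 and 5.06 in controls. Knockout 1, with 1 count, lay below all controls, and the ratio of summed counts (50 in knockouts, 15 in controls) was 2.89 (95% counting interval 1.6 to 5.55).

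Tars (ENSMUSG00000022241.5, chromosome 15), for threonyl-tRNA synthetase, had the fewest counts. It had 0, 6, 5 and 8 counts in knockouts and 2, 3 and 0 in controls, and a count of 0 allows a level of up to 10.3 in knockout 1 and 3.80 in control 3. The groups overlapped, and the ratio was 3.3 (95% counting interval 1.19 to 11.3).

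Among the enzymes of the complex, Iars had the highest ratio and Eprs the most counts. Iars (ENSMUSG00000037851.13, chr13:49682100-49734267, plus strand) encodes isoleucyl-tRNA synthetase, with a level of 24.0, 44.8, 34.7 and 31.8 in knockouts, against 1.96, 4.99 and 5.06 in controls. The groups were far apart, and the log2 fold change was 2.93 ± 0.34 (SE). Eprs (ENSMUSG00000026615.14, chr1:185363044-185428360, plus strand) encodes the glutamyl-prolyl enzyme, a single protein with both activities. Its level was 34.2, 80.7, 69.4 and 50.9 in knockouts, against 23.5, 12.5 and 20.2 in controls. Knockout 1 lay only somewhat above control 1, and the log2 fold change was 1.69 ± 0.38 (SE).

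Lars (ENSMUSG00000024493.8, chromosome 18) encodes leucyl-tRNA synthetase, which also senses leucine for the mTORC1 kinase pathway. Its level was 10.3, 56.0, 23.6 and 19.1 in knockouts, against 13.7, 2.50 and 3.80 in controls. Control 1 lay above knockout 1, the log2 fold change was 2.29 ± 0.72 (SE), and the gene was not called. Mars (ENSMUSG00000040354.14, chr10:127296221-127311786, minus strand), for methionyl-tRNA synthetase, had 4, 8, 5 and 8 counts in knockouts and 1, 4 and 0 in controls. The levels, 4.24 to 17.9 in knockouts and at most 2.50 in controls, did not overlap, and the ratio was 4.34 (95% counting interval 1.63 to 14.5). Exons of Mars overlap Ddit3 on the opposite strand, which had 4 counts in all, and those of Yars overlap C77080, also on the opposite strand, which had 5. Exons of Aars overlap Exosc6 on the same strand and the microRNA gene Gm24103 on the opposite one, both with 0 counts. Whether counting used strand is unstated in the sources, and same-strand reads could not be parted by it, so reads of these overlaps cannot be told apart.

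**Figure D3:**
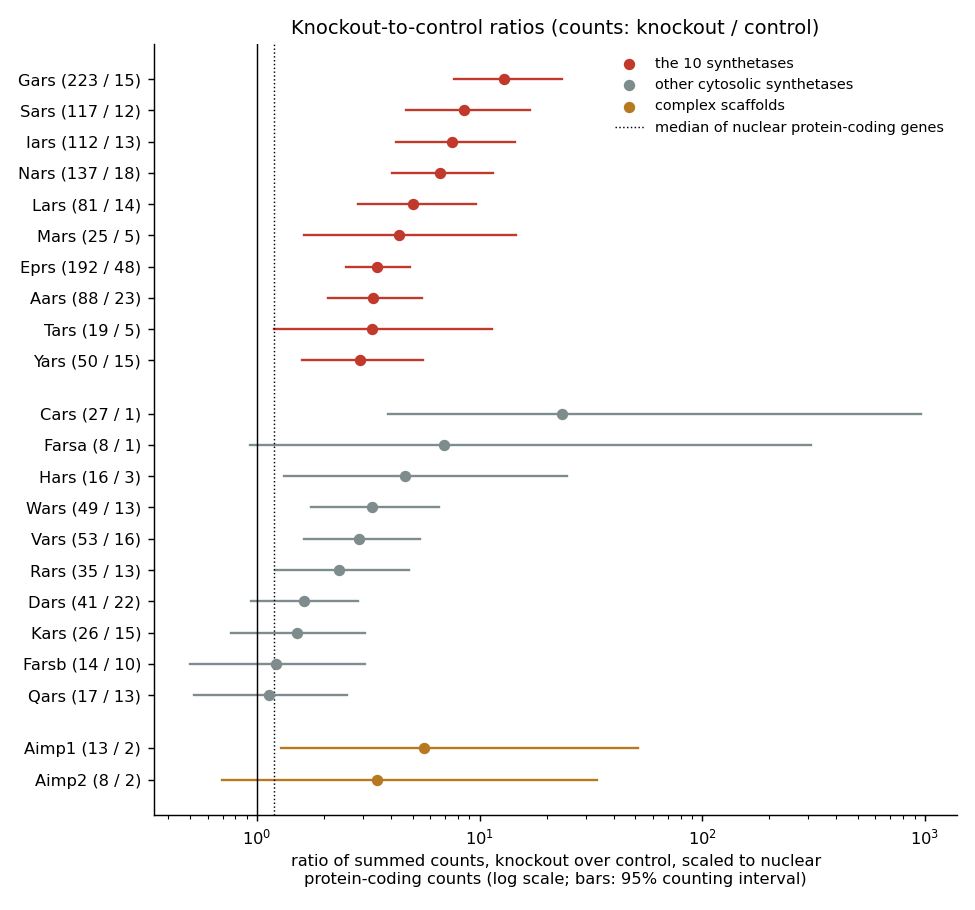
Ratio of summed counts, knockout over control, scaled to nuclear protein-coding counts (horizontal log axis), with 95% counting intervals, for the 10 synthetases (red), the other cytosolic synthetases (grey) and scaffolds of the complex with a count in both groups (ochre). Counts stand beside each name, knockout before control, and the dotted line marks the median of nuclear protein-coding genes, 1.19. Gars has the highest ratio of the 10 (12.9), and intervals are wide where controls had few counts, as in Cars.

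The libraries differed within the knockout group in a shared way. Knockout 2 had the highest level of 9 of the 10 genes, and knockout 1 the lowest of 7. MicroRNA and snoRNA counts per nuclear protein-coding count were 3.58, 8.65, 1.45 and 0.184 in knockouts, against 7.35, 0.393 and 1.53 in controls, so that knockout 2 stood highest in this measure too. The part of this measure in the spread was not tested.

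Shares of the summed counts of the 10 genes were also taken. Gars made up 21.4% in knockouts (223 of 1044, 95% Wilson interval 19.0 to 23.9) and 8.93% in controls (15 of 168, 5.49 to 14.2). Eprs made up 18.4% in knockouts (16.2 to 20.9) and 28.6% in controls (22.3 to 35.8), and Aars 8.43% in knockouts (6.89 to 10.3) and 13.7% in controls (9.30 to 19.7). By library, the share of Gars was 18.8% to 33.8% in knockouts and 5.95% to 13.9% in controls, and that of Eprs 14.1% to 19.5% in knockouts and 23.8% to 33.3% in controls. The share of Aars overlapped, at 4.85% to 10% in knockouts and 5.56% to 16.7% in controls. Gars had the most counts of the 10 genes in knockouts (223), and Eprs had the most in controls (48).

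Levels between genes were compared per kilobase of the annotated coding transcript with the longest coding sequence. Counts were per gene, and all annotated exons together span more, 18102 bases for Eprs and 3119 for Gars. The transcripts used had 4906 and 2380 bases in the same order, so the orders below depend on this choice of length. In knockouts the level per kilobase ran from Gars (32.8 ± 7.89, SD) through Sars (19.4 ± 2.96), Nars (15.4 ± 7.12), Eprs (12.0 ± 4.17), Iars (7.64 ± 1.95), Lars (6.85 ± 5.02), Yars (4.96 ± 2.79), Aars (4.40 ± 0.440) and Mars (3.61 ± 2.11) to Tars (1.54 ± 1.41; n = 4). In controls it ran from Eprs (3.82 ± 1.15, SD) through Gars (2.69 ± 1.40), Sars (2.16 ± 0.162), Nars (2.08 ± 0.572), Lars (1.67 ± 1.54), Yars (1.67 ± 0.299), Aars (1.28 ± 0.551), Iars (0.904 ± 0.401) and Mars (0.501 ± 0.443) to Tars (0.482 ± 0.489; n = 3). In both orders each gene overlapped with its neighbours over the libraries of the group. In knockouts Gars ranged from 21.4 to 39.6 per kilobase and did not overlap with Eprs, which ranged from 6.98 to 16.5, whereas in controls Gars (1.31 to 4.11) and Eprs (2.54 to 4.79) overlapped.

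The 10 genes were also set against the other cytosolic synthetases within each library, where scaling between libraries cancels. Their summed counts were 3.55, 4.58, 2.95 and 3.81 times those of the other 10 in knockouts, against 2.25, 1.5 and 1.37 times in controls. The groups did not overlap, and the mean log2 ratio was 1.87 ± 0.26 (SD, n = 4) in knockouts and 0.73 ± 0.37 (SD, n = 3) in controls, a difference of 1.141 or 2.21-fold. The division into the 2 sets follows the choice of genes, so this is a description of how far they stand apart.

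The other cytosolic synthetases summed to a level of 68.5, 101, 121 and 71.0 in knockouts, against 31.3, 34.9 and 44.3 in controls. These groups did not overlap either, with a ratio of 2.32 (95% counting interval 1.85 to 2.93) against 5.40 (4.58 to 6.39) for the 10. All 10 of them had a ratio above 1, and of the 9 with at least 15 counts, 5 had an interval above 1. Among the 5869 nuclear protein-coding genes with at least 15 counts, 61.9% had a ratio above 1 and 18.0% an interval above 1. Cars, for cysteinyl-tRNA synthetase, had 27 counts in knockouts and 1 in controls (ratio 23.4, 95% counting interval 3.86 to 960), and Wars, the tryptophanyl enzyme, had 49 and 13 in the same order (3.27, 1.75 to 6.58). Vars, the valyl enzyme and the sole gene of these kept by the filter, had 53 counts in knockouts and 16 in controls (log2 difference 1.40 ± 0.48, SE; adjusted p = 0.102 with edgeR), a gene called under 2 of 13 alternatives, with the small RNA ratio as a covariate and without knockout 1. Qars, the glutaminyl enzyme, had 17 counts in knockouts and 13 in controls (1.135, 0.519 to 2.54).

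**Figure D4:**
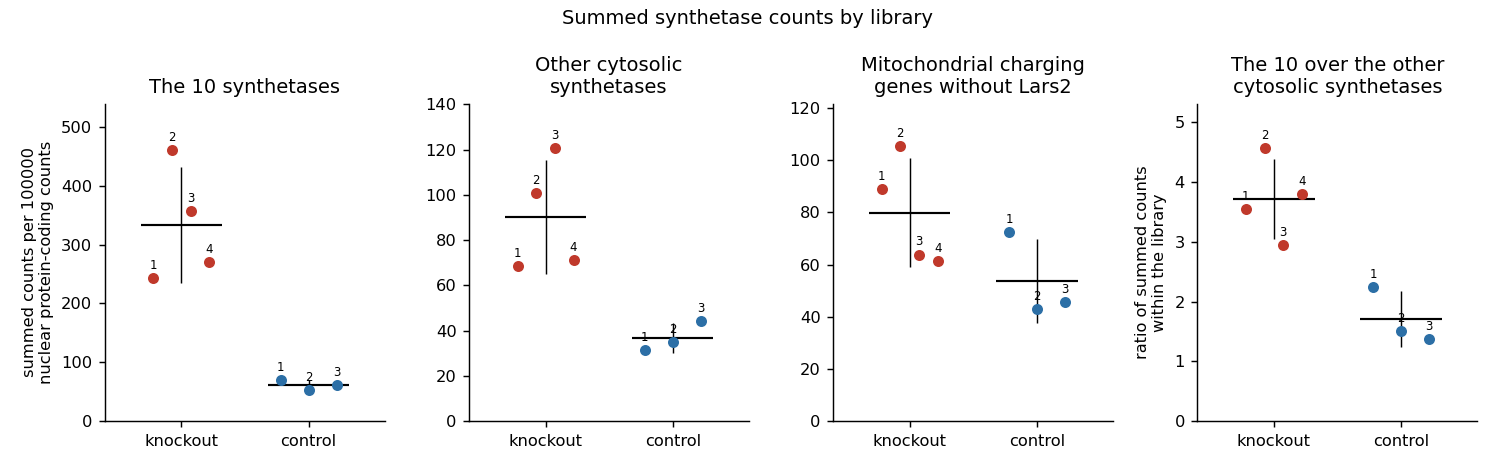
Summed counts per 100000 nuclear protein-coding counts (first 3 panels) for the 10 synthetases, the other cytosolic synthetases and the mitochondrial tRNA-charging genes without Lars2, and the within-library ratio of the first to the second (last panel), in 4 knockout (left, red) and 3 control (right, blue) libraries. Horizontal lines are means and vertical lines 1 SD. The 10 synthetases lie between 243 and 462 in knockouts and between 52.4 and 70.4 in controls, and the mitochondrial genes overlap between groups.

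Both sets hold enzymes of the complex. Enzymes of the complex among the 10 genes (Eprs, Iars, Lars and Mars) summed to 410 counts in knockouts and 80 in controls, a ratio of 4.45 (95% counting interval 3.49 to 5.73). The complex enzymes among the other synthetases (Dars, Kars, Qars and Rars) summed to 119 and 63 in the same order, a ratio of 1.64 (1.2 to 2.26), and their libraries overlapped (lowest knockout level 27.0, highest control level 27.8). The 6 of the 10 genes that act outside the complex had a ratio of 6.26 (5.0 to 7.91). The scaffolds had 27 counts in knockouts and 4 in controls, a ratio of 5.86 (2.04 to 23.1), and none of the 3 passed the filter.

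The mitochondrial tRNA-charging genes were a separate list of 21, of which 2 passed the filter and 0 were called by edgeR, by DESeq2 or at an unadjusted p under 0.05. Iars2, the mitochondrial isoleucyl enzyme, had a log2 fold change of 0.35 ± 0.37 (SE). Without Lars2, the list had levels of 61.5 to 105 in knockouts and 43.1 to 72.4 in controls. These overlapped, while the ratio of summed counts was 1.44 (95% counting interval 1.16 to 1.78). Lars2, for the mitochondrial leucyl enzyme, stood apart by its number of counts, with a level of 3246, 3539, 5283 and 7036 in knockouts and 3950, 16550 and 9064 in controls. How multiply mapped reads were counted is not given, and whether all counts of Lars2 came from its mRNA was not tested. Lars2 took 3.25% to 7.04% of nuclear protein-coding counts in knockouts and 3.95% to 16.6% in controls, so it moves the scale on which all other levels here are given. Scaling without the 10 most abundant genes, Lars2 included, left the log2 difference of the summed 10 genes at 2.21.

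In a list of the ATF4 pathway and amino acid supply, chosen with earlier results of these data known, 7 of 19 genes were kept by the filter. Of these 7, 5 (Atf4, Asns, Shmt2, Aldh18a1 and Slc3a2) reached its floor in no control library, so passing depended on the knockouts, as for the synthetases. All but Slc38a2 of the 7 were called higher and none lower, where 8.3% of all genes tested were called higher, and nothing is read from that count. Asns, which makes asparagine, had 9, 19, 26 and 56 counts in knockouts and 2, 0 and 0 in controls (log2 difference 5.31 ± 0.75, SE; edgeR adjusted p = 0.00834). Atf4 itself had a level of 27.4 to 55.5 in knockouts and 0 to 8.86 in controls (3.02 ± 0.59; edgeR adjusted p = 0.0215). Aldh18a1, an enzyme of proline synthesis, had 3.49 ± 0.46 (edgeR adjusted p = 0.00663), and Shmt2, of mitochondrial serine and folate metabolism, had 2.18 ± 0.47 (edgeR adjusted p = 0.0292). The amino acid transporter genes Slc3a2 and Slc7a1 had 2.03 ± 0.47 (edgeR adjusted p = 0.0357) and 1.25 ± 0.28 (edgeR adjusted p = 0.0335). The calls of Asns and Aldh18a1 held under 14 of 16 alternatives, that of Atf4 under 10 of 16, that of Shmt2 under 7 of 12, that of Slc3a2 under 5 of 11 and that of Slc7a1 under 3 of 16. Of 12 cytosolic translation factors, 5 passed the filter and 1 was called higher, Eef1a1 (1.33 ± 0.28; edgeR adjusted p = 0.027). Its product brings charged tRNA to the ribosome, and its call held under 6 of 16 alternatives. The related gene Eef1a2 lay the other way, with a log2 difference of -0.49 ± 0.31. Eef1a2 was not called, but it was lower in every knockout than in any control (means 72.9 and 103). Without control 2, none of the genes called in these lists was called, nor were Postn and Cd74, with an adjusted p of 0.0607 for Aldh18a1 and 0.103 for Atf4 in edgeR. Without knockout 3 or control 3, Asns and Aldh18a1 were the pathway genes still called. Shmt2 and Slc3a2 did not pass the filter without control 2, control 3 or knockout 3, so they were not tested there. Shmt2, Slc3a2, Slc7a1 and Eef1a1 were not called without control 1 (edgeR adjusted p 0.0536 to 0.0836), and Slc7a1 and Eef1a1 were not called without knockout 2 (0.0528 for both).

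The 5 genes outside the 10 whose pattern over the 7 libraries was most like their summed level were found among 965 nuclear protein-coding genes with at least 100 counts. Likeness was the root mean square difference of centred log2 levels, and it was 0.165 for Lonp1, a protease of the mitochondrial matrix, and 0.172 for Gbe1, the glycogen branching enzyme. Sqstm1, an autophagy receptor, had 0.226, Myo1c, a myosin, 0.233 and Msn, a linker of membrane and actin, 0.251. Lonp1 had a level of 75.3, 134, 83.3 and 65.7 in knockouts, against 19.6, 16.8 and 17.7 in controls, highest in knockout 2 as the synthetases were. Measured the same way against the sum they belong to, the 10 genes lay between 0.336 (Sars) and 1.06 (Tars). These values do not compare evenly, since the 5 genes above were picked as the nearest of 965. Lars, Yars, Mars and Tars also had fewer than 100 counts, so counting error weighs more in their values.

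**Figure D5:**
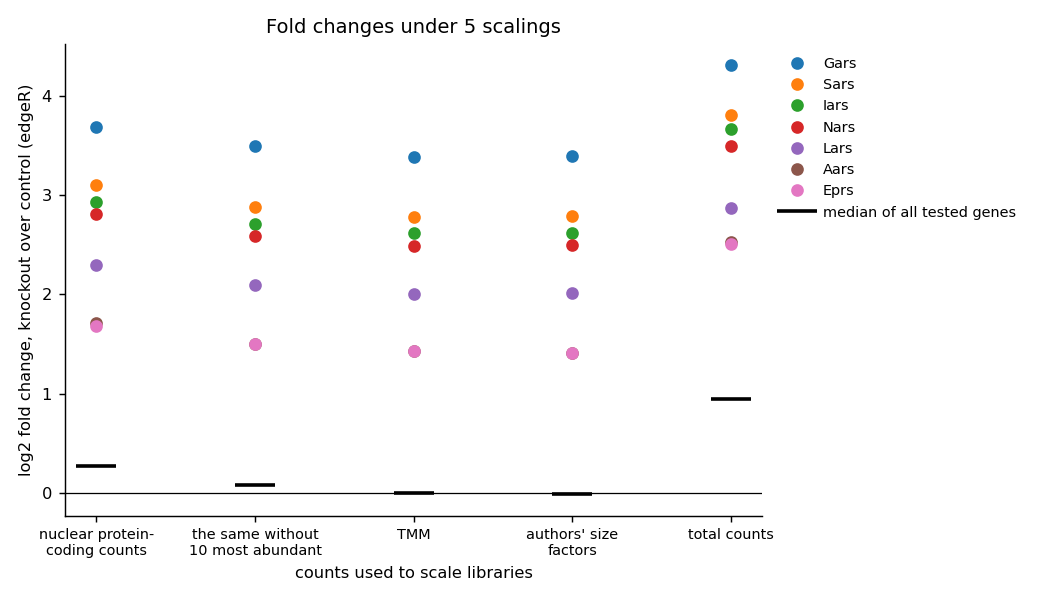
Log2 fold change, knockout over control, of the 7 synthetases kept by the low-count filter (coloured points) and the median of all genes tested (black bars), under 5 ways of scaling the libraries (horizontal axis). Gars is highest and Aars and Eprs lowest under each of the 5, and scaling to total counts moves the median of all genes to 0.95.

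The direction of the 7 fitted genes was the same in each of their 110 values under alternatives, with a lowest log2 fold change of 1.41. The number called was between 1 (scaling to total counts, Gars alone) and 7. Without control 2 only Gars, Sars and Iars were called, and without knockout 3 or control 3, 4 of the genes were. The authors' deposited table, with its own scaling and its own DESeq2 fit, gave log2 fold changes from 1.04 (Tars) to 3.13 (Gars) for the 10 genes. For Gars, edgeR with the authors' size factors gave 3.40, so the deposited values differ from those here in more than scaling.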

How the data were processed

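RNA from crude heart mitochondria was made into libraries with a small RNA kit and sequenced single end, per the labels' protocols. Raw counts per gene were deposited by the authors. The submitters' processing notes name featureCounts and bedtools, DESeq2 1.14.1 with R 3.3.2, SAMtools 1.3.1, Bowtie2, cutadapt 1.10 and build mm10. For strand, multiply mapped reads and annotation release, settings were not given in the sources used here. A normalized signal deposited by the authors is each raw count over a library factor, and served as an alternative scaling. The authors' deposited table of comparisons holds log2 fold changes, a Wald score and p-values, per the file headers, of which only log2 fold changes are quoted.

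All genes were fitted together in R 4.3.3 by edgeR 4.0.16 (quasi-likelihood test, two-sided, 2 groups, no covariate, library size set to nuclear protein-coding counts, minimum count of 10) and called below a Benjamini-Hochberg adjusted p of 0.05. Standard errors are the fold change over the root of its F. Ratios of summed counts have exact conditional 95% intervals, and shares Wilson intervals (scipy 1.17.1). Logs of sums used a pseudocount of 0.5. Coordinates come from GENCODE M21 (GRCm38) where the identifier version was the same, and promoters from RefSeq, where 1 match is not reported here. The fit was tested on simulated data. Each library was taken as 1 mouse from the design text. Where libraries were not separate animals, p-values would measure technical spread. The 10 genes, all lists and the naming rule were chosen with earlier results of these data known: all 10 genes, every called gene of another list or else up to 3 tested ones, and the 5 genes most alike. Further ratios (Cars, Wars, Qars) and markers were named after their values were seen. Same-numbered libraries did not all deviate together (correlations 0.53, -0.79 and 0.28 for numbers 1, 2 and 3), so numbers were not taken as pairs.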

Additional observations from a re-analysis of the deposited data

How the results depend on the processing

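Over all 1602 genes tested, 158 were called (133 higher and 25 lower in knockouts), with 6 of the 10 synthetases and 7 genes of the other lists of pathway genes among the higher. The number was 72 with TMM scaling (48 higher, 24 lower, 2 of the other lists), 14 with scaling to total counts (13 higher, 1 synthetase, 2 of the other lists), 265 with no low-count filter (211 higher, 15 of the other lists) and 444 with the small RNA ratio as a covariate (323 higher, 121 lower). It was 119 with the authors' size factors (74 higher, 45 lower, 3 of the other lists), 140 without the 10 most abundant genes (96 higher, 44 lower) and 234 with DESeq2 1.42.0 (122 higher, 112 lower). With the replicate number as a block it was 15 (all higher, 4 synthetases, 0 of the other lists). These numbers share no source in the labels, and controls 1, 2 and 3 were most like knockouts 2, 4 and 3. Leaving out 1 library at a time gave 13 to 160 calls, 3 to 7 synthetases and 0 to 9 genes of the other lists, with the fewest without control 2. The cause of these changes was not tested.

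Over all genes the median log2 fold change, 0.27, moved by -0.27 with TMM, -0.28 with the authors' size factors, -0.19 without the 10 most abundant genes, -0.29 with DESeq2, 0.11 with the block and 0.68 with total counts. The summed synthetase difference was 2.81 with total counts, 2.11 with TMM and 2.49 within same-numbered pairs, and 2.24 to 2.54 with 1 library left out. The difference to the other cytosolic synthetases was 1.003 to 1.35 over its 9 alternatives. Of 110 fits of single synthetases, 100 stayed within 1 SD of the log2 levels and 0 reversed. Summed over all control libraries, each synthetase had 5 to 48 counts, which limits how well a fold change is known.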
